A study of Mus musculus with 61 samples.

Results

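The nuclear genes of oxidative phosphorylation (OXPHOS) were followed through the reprogramming of mouse pancreatic ductal organoids toward endocrine cells. They were picked by gene symbol, with earlier results of these data known. The rule took all genes named Ndufa, Ndufb, Ndufc, Ndufs or Ndufv with a number, Sdha to Sdhd, Uqcr, Cox4 to Cox8, or Atp5. This gave 88 of the 46078 genes in the count table. Of these, 40 belonged by name to complex I, 4 to complex II, 8 to complex III, 19 to complex IV and 17 to complex V. The assembly factors of the Ndufaf family were not included, nor were 6 genes whose symbols end in -ps. Protein-coding genes made up 84 of the 88, and the other 4 (Ndufa11b, Ndufb4c, Ndufs6b and Cox6c2) are annotated as processed pseudogenes. The edgeR quasi-likelihood test could be run on 85 members. Cox7b2 had 0 counts, and Cox8b and Cox8c had counts in 1 sample each, so these 3 were not tested.

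Ductal organoids are three-dimensional cultures of pancreatic duct cells, here from C57BL/6 mice, the common laboratory strain. All cultures were infected with doxycycline-inducible lentiviral vectors for GFP with Ngn3, LSS-Orange with Pdx1 and tdTomato with MafA, and all were induced for 8 days, so the cells used as controls here carried Pdx1, MafA or both and came from infected, induced cultures as well. Ngn3 was either wild type (WT) or the phospho-mutant 6SA, in which 6 serines had been replaced. Fluorescent cells were sorted into pools of 50 cells, from which RNA-seq libraries were made with a single-cell protocol. From WT cultures, Ngn3-negative cells gave 2 samples for Pdx1, 2 for MafA and 3 for both together, and Ngn3-positive cells gave 3 samples for each of these partner sets. From 6SA cultures the numbers were 2, 3 and 3 without Ngn3 and 3, 3 and 2 with it. The vectors were overexpressed and the amount of each factor may differ from cell to cell within a pool. Replicates 1 and 2 were at passage 2 and replicate 3 at passage 5.

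Complexes I to IV of the inner mitochondrial membrane pass electrons from NADH and succinate to oxygen and pump protons (complex II passes electrons only), and complex V, the ATP synthase, uses the proton gradient to make ATP. Complex II is wholly encoded in the nucleus, while the other complexes also hold subunits encoded by mitochondrial DNA. In mature beta cells, ATP made in this way closes K-ATP channels and couples glucose to insulin secretion. Many of the nuclear genes are known to be bound by nuclear respiratory factor NRF-1, by ETS factors such as GABP, and by YY1.

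Across the 12 conditions, 0 of the 85 tested members passed edgeR's quasi-likelihood test at an adjusted p under 0.05 (Benjamini-Hochberg over all genes), while 7.2% of the 24004 genes tested did. At an unadjusted p under 0.05 there were 2 members, Ndufa1 and Ndufv3, and DESeq2 called 2. Levels of the members varied several-fold from sample to sample. Summed short OXPHOS transcripts (under 700 bases) differed by up to 14.7-fold between libraries of 1 sample, and summed long ones (over 1500 bases) by at most 1.46-fold.

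The promoters are described here, and their part in the shared movement of members across samples was not tested. RefSeq promoter windows, which cover 250 bases before and 50 bases after the transcription start (GRCm38.p6), were found for 68 of the 88 members. The NRF-1 core CGCATGCG, a palindrome, was present in 9 of these (13.2%) and in 2.07% of the 27025 genes with a window. The YY1 letters AAGATGGC were present in 10 members (14.7%) against 3.19% of all genes. The ETS letters CCGGAAGT were present in 5 members (7.35%) against 4.31% of all genes. Both strands were searched, none of the motifs contains another, and 46 of the 68 members held none of the 3. In 8 of the 10 members with the YY1 letters they stood on the coding strand just after the start, at +23 to +39. A match of letters is a description of the window and not a bound site. The stretches printed run from 150 bases before to 30 bases after the start, 5′ to 3′ on the coding strand, with motif letters in capitals. They were picked after the results were known. Ndufa11 and Cox7a1 passed a test, Uqcr11 holds an NRF-1 core and the ETS letters, Atp5h holds the ETS letters on the opposite strand, Ndufa3 holds the YY1 letters, and the Cox7a1 window holds none.
Ndufa11 (chr17:56717612-56717791, + strand): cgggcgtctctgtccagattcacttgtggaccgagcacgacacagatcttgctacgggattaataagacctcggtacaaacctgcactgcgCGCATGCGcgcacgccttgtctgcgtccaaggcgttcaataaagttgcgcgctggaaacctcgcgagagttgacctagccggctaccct
Uqcr11 (chr10:80406792-80406971, - strand): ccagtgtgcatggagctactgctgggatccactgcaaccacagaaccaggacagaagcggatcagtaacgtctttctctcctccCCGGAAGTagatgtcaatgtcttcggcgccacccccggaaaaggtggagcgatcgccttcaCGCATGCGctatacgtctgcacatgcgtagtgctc
Atp5h (chr11:115419890-115420069, - strand): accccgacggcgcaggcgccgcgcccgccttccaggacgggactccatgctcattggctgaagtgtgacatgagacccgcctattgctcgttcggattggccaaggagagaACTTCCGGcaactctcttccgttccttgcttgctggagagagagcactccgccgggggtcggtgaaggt
Ndufa3 (chr7:3617223-3617402, + strand): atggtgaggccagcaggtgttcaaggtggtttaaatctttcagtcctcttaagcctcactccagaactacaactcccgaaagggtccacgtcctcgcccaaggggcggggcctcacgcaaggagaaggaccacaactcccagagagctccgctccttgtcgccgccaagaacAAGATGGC
Cox7a1 (chr7:30184021-30184200, + strand): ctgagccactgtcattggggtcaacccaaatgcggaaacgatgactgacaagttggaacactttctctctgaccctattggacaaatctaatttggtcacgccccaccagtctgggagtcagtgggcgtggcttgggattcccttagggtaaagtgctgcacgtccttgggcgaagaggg

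The data comprised 61 libraries. Of these, 58 held over 1000000 gene counts (1373561 to 9736403) and were used, and 3 held 241563 to 625650 and were left out, all of them from cells with Ngn3, Pdx1 and MafA. Libraries of 1 sample were summed, which gave 32 samples with 2579583 to 19461008 gene counts, 15 of them Ngn3-negative and 17 Ngn3-positive. A count of 3 corresponded to 0.154 to 1.16 CPM (counts per 1000000 gene counts), depending on the sample. Neurog3 itself, which encodes Ngn3, was at 0 to 0.788 CPM in the Ngn3-negative samples and at 7.87 to 329 CPM in the Ngn3-positive ones. Over all 32 samples Pdx1 was at 3.21 to 191 CPM (median 20.5) and Mafa at 0 to 12.7 CPM (median 0.408). Some samples labelled MafA lay at or below this Mafa median, and the partner labels were not checked further. Cell type markers followed the labels, with 11 endocrine markers summing to 2.53 to 59.1 CPM in Ngn3-negative and 623 to 13938 CPM in Ngn3-positive samples, and 11 duct markers summing to 16493 to 65536 CPM and 2684 to 22172 CPM. The summed acinar markers stayed at or below 46.1 CPM, with Cela3b, Amy2a5, Ptf1a and Pnlip at 0 in all samples. Mesenchymal markers summed to 0.143 to 14.8 CPM in Ngn3-negative and 0.203 to 298 CPM in Ngn3-positive samples (Lum at 0), and immune and endothelial markers to 1.54 to 18.9 and 0.674 to 46.9 CPM (Adgre1 at 0). Fewer cells of a type and less RNA per cell cannot be told apart in such pools. Nothing in the labels says that replicates came from separate animals, so p-values measure the spread between these samples only. Replicate 3 of 6SA MafA cells stood apart in its scaling factor (0.697) and its share of spike-in reads (0.396%). Complex sums and counts of called members that rest on it are therefore also given without it.

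All 5 complexes were well expressed in these cells. Levels below are CPM scaled by TMM, the trimmed mean of M values, unless said otherwise. The 5 members of highest mean level were Atp5b at 1514 CPM and Atp5a1 at 795 CPM, the beta and alpha subunits of the catalytic head of ATP synthase, Cox4i1 at 534 CPM, a core-associated subunit of cytochrome c oxidase, Uqcrc1 at 361 CPM, a core protein of complex III, and Sdha at 354 CPM, the flavoprotein of succinate dehydrogenase. Per kilobase of the longest annotated transcript, the order was Atp5b with a median of 835 CPM per kb, Cox4i1 with 651, Cox6a1 with 381, Cox8a with 367 and Atp5g3 with 323. The 5 members of lowest mean level were Cox7b2, Cox8b, Cox8c, Cox6a2 and the pseudogene Ndufb4c. Every 50-base window of Ndufb4c also occurs in other genes, so its counts cannot be assigned with certainty. In 28 members over 10% of the windows were shared with other genes, and 43 members shared none.

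Where a subunit has a widely expressed and a tissue-restricted gene, the widely expressed one was the higher. Cox4i1 had a median of 498 CPM and its hypoxia- and lung-associated relative Cox4i2 a median of 0.0746 CPM. Cox6a1 stood at 217 CPM and the heart and muscle isoform Cox6a2 at 0, with 21 counts over 6 samples in all. Cox8a stood at 202 CPM, against the 3 and 4 counts in total of Cox8b and Cox8c. Cox7a2 stood at 83.6 CPM and the muscle isoform Cox7a1 at 0.566 CPM, and Cox7a2l, a factor of supercomplex assembly, at 167 CPM. Cox6b1 had a median of 177 CPM, and Cox6b2, known as a testis isoform, was still measurable in all 32 samples at 4.54 to 51.4 CPM. Ndufa4 was at 181 CPM and Ndufa4l2 at 0 CPM. Cox7b had a median of 94.4 CPM, while Cox7b2 was at 0. Of the genes for subunit c of ATP synthase, which encode the same mature protein, Atp5g3 had a median of 234 CPM, Atp5g1 14.3 CPM and Atp5g2 1.75 CPM. Atp5l, subunit g, had a median of 10.9 CPM.

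Summed over their members, complexes I, III and IV varied widely from sample to sample and complex II little. Complex IV ranged from 551 to 4508 CPM over the 32 samples, an 8.18-fold range. Complex I ranged from 1471 to 8123 CPM (5.52-fold), complex III from 555 to 2973 CPM (5.35-fold) and complex V from 1805 to 6446 CPM (3.57-fold). Complex II ranged from 528 to 1299 CPM, which is 2.46-fold. Replicate 3 of 6SA MafA cells held the highest sum for complexes I, II, III and V. Without it the highest sums were 7758, 1142, 2054 and 5577 CPM.

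**Figure D1:**
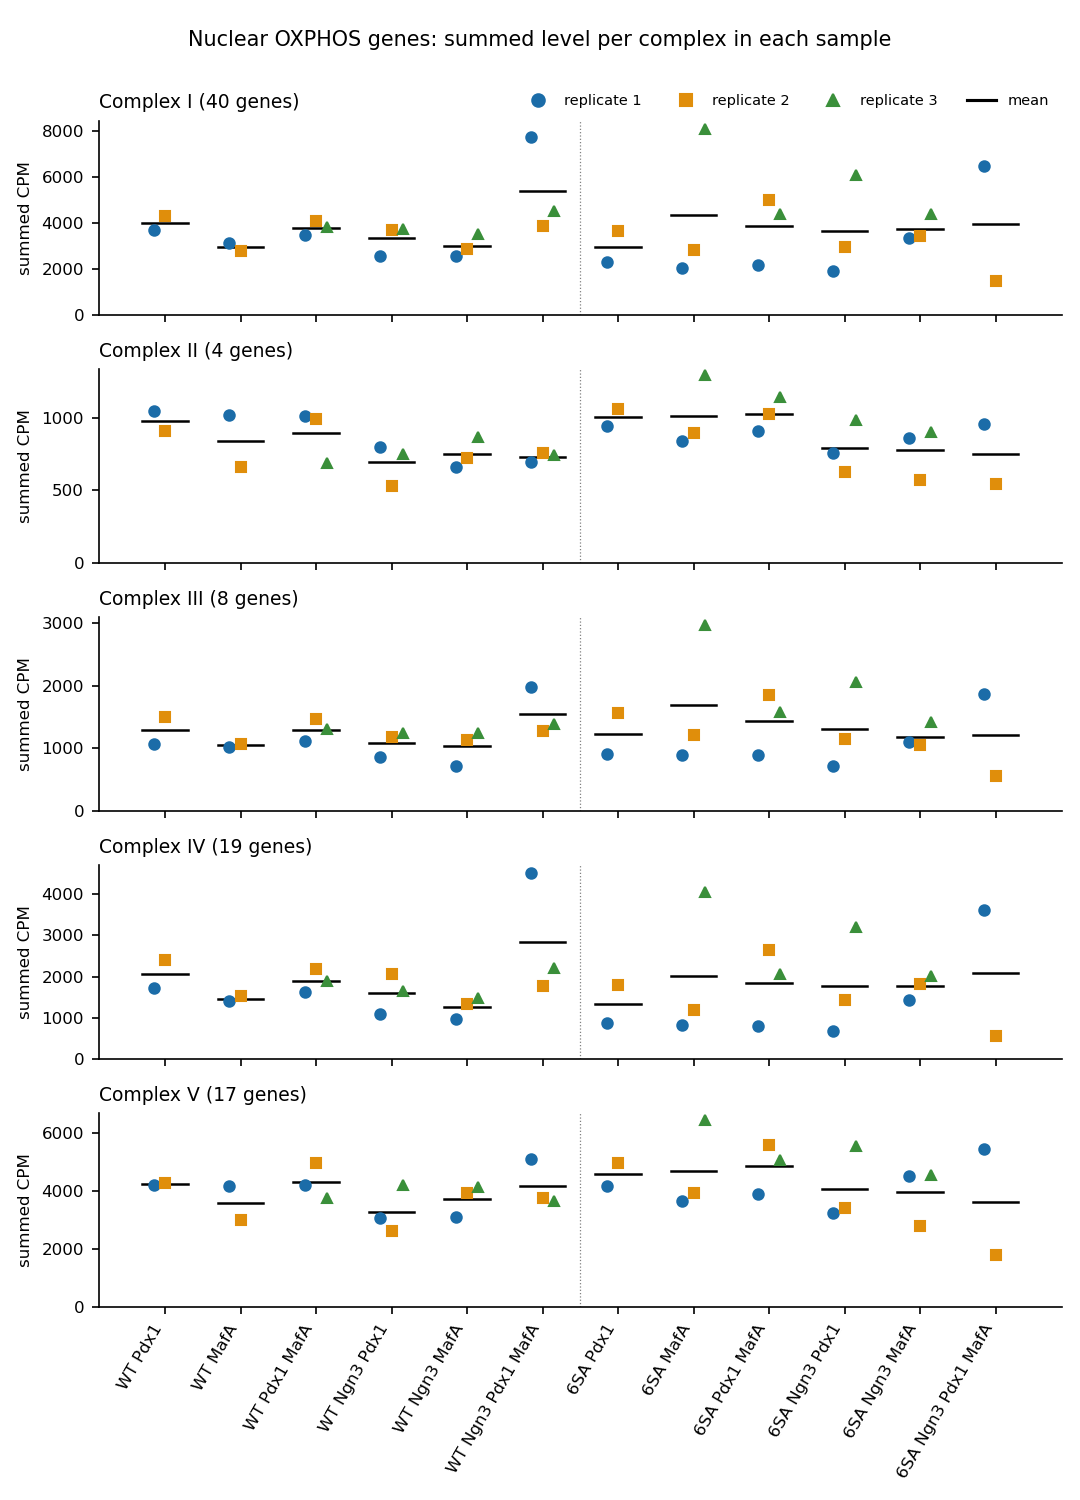
Summed CPM (y axes, linear from 0) of the members of each complex in the 32 samples, by condition (x axis), with 1 symbol per sample shaped and coloured by replicate and the group mean as a black line. The spread between replicates of 1 condition is as large as the differences between condition means, most clearly in complex IV (551 to 4508 CPM), and least in complex II (528 to 1299 CPM).

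With and without Ngn3 the sums overlapped in every complex. Complex I was 3715 ± 1496 CPM (SD, n = 15) in Ngn3-negative and 3833 ± 1645 CPM (n = 17) in Ngn3-positive samples. For complex IV the values were 1803 ± 839.6 and 1873 ± 1044 CPM, for complex III 1360.2 ± 533 and 1229 ± 425 CPM, and for complex V 4421 ± 857 and 3816 ± 1025 CPM. Complex II was 963 ± 162 CPM (661 to 1299) in Ngn3-negative and 749 ± 137 CPM (528 to 985) in Ngn3-positive samples. Without replicate 3 of 6SA MafA cells the Ngn3-negative medians of complexes I to V were 3557, 966, 1164, 1672 and 4196 CPM, and the Ngn3-positive medians were 3534, 752, 1172, 1659 and 3749 CPM. These sums were not tested, since their members had been chosen.

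Members with longer transcripts varied less. The SD of log2(CPM + 1) over the 32 samples was taken for 78 members with a mean of at least 10 CPM. Across these genes it had a Spearman correlation of -0.68 with the length of the longest coding transcript. Over 9587 other nuclear coding genes at that level it was -0.101, with 8422 of them over 1500 bases and 92 under 700. The median SD of these other genes also fell with length, at 0.82 under 700 bases, 0.68 in the middle class and 0.62 over 1500 bases. The median SD was 0.78 for 28 members under 700 bases, 0.74 for 30 members of 700 to 1500 bases and 0.48 for 20 members over 1500 bases. The steadiest was Atp5a1, with an SD of 0.39. Cox5a and Uqcrfs1 varied most, with SDs of 1.39 and 1.33. Cox5a is a matrix-side subunit of complex IV, and 32.05% of its 50-base windows occur in other genes. Uqcrfs1, the Rieske iron-sulfur protein of complex III, shares none. For Ndufb2, Atp5g1 and Uqcrq the longest annotated transcript may not be the one expressed, so their place by length is uncertain.

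**Figure D2:**
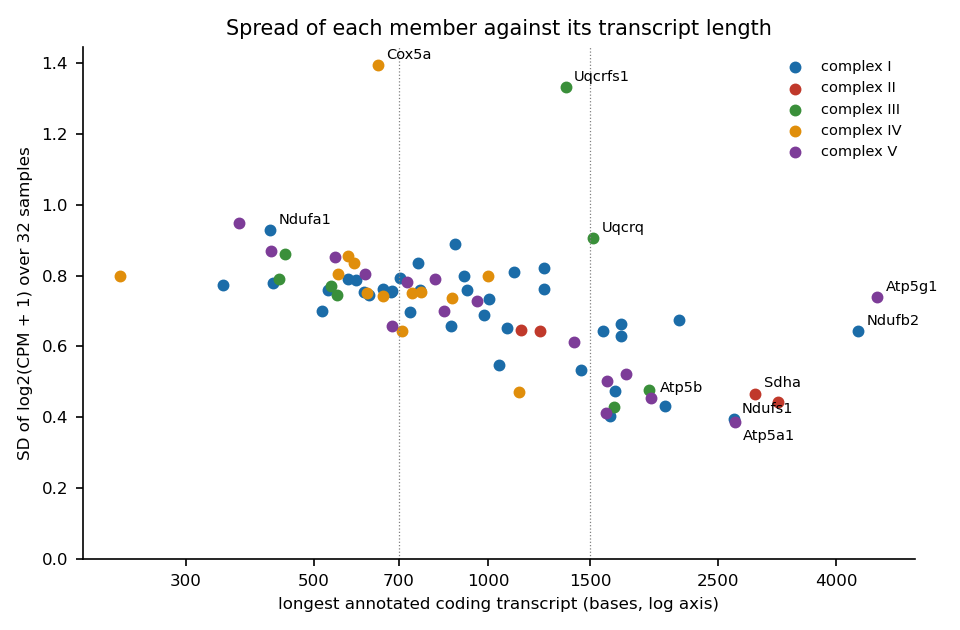
SD of log2(CPM + 1) over the 32 samples (y axis) against the length in bases of the longest annotated coding transcript (x axis, log) for the 78 members with a mean of at least 10 CPM, 1 point per gene coloured by complex, with dotted lines at 700 and 1500 bases. Points fall from a median SD of 0.78 on the left to 0.48 on the right, with Cox5a (1.39) and Uqcrfs1 (1.33) above the rest.

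Levels of members with short transcripts were closely correlated across samples. The median Pearson correlation of log levels over the 32 samples was 0.74 for the 3003 pairs of the 78 members, 0.90 for pairs of short transcripts and 0.32 for pairs of long ones. These are descriptions, since the samples share depth and libraries. Cox5b, Cox8a and Ndufc2 followed the mean of the other members most closely, with r of 0.98, 0.97 and 0.97. Sdha (r = -0.53) and Ndufs1 (r = -0.51), the large iron-sulfur subunit of complex I, ran against it, and Atp5a1 (r = -0.0752) was unrelated to it. Their transcripts are long, at 2900, 2661 and 2674 bases.

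The same pattern appeared between libraries made from 1 sample, which share condition and replicate. For 17 samples with more than 1 kept library, the summed CPM (plain totals) of the 34 short members differed between the lowest and highest library by 1.10- to 14.7-fold, and in 12 of the 17 by over 1.5-fold. For the 20 long members the range was 1.01- to 1.46-fold. Complex IV differed by up to 11.99-fold and complex II by up to 1.76-fold. In replicate 1 of 6SA cells with all 3 factors, complex IV summed to 968, 3401.5 and 11611 CPM in the 3 libraries, while complex II summed to 1153, 1105 and 654 CPM. In replicate 1 of WT cells with all 3 factors, complex IV summed to 10081, 8304.5 and 1347 CPM. The short members' sum differed by 11.9-fold and 14.7-fold between the libraries of these 2 samples, more than between the 32 samples, where it ran from 776 to 7147 CPM (9.21-fold). In the other 15 samples with several libraries the fold was lower than that, and the median over the 17 was 1.64.

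A measure that uses none of the members ranked the libraries in nearly the same order as the short members did. This was the percent of counts on 908 other nuclear coding genes with transcripts under 700 bases, leaving out genes that passed a Ngn3 comparison. Sod1 (7.8% of the set), Rplp1 (5.34%) and Rps27l (4.59%) contributed most. The set also held Atpif1 (3.7%), an OXPHOS partner gene outside the naming rule. Over the 58 kept libraries its Spearman correlation was 0.947 with the summed short members, 0.959 with complex IV, 0.914 with complex I, -0.0489 with complex II and 0.192 with the long members. Libraries of 1 sample are not independent, so no p is given. It exceeded 2% in 5 kept libraries, which were replicate 3 of 6SA MafA cells (2.17%), 1 library of replicate 2 of 6SA Ngn3 MafA cells (3.27%), and 3 libraries of cells with all 3 factors, namely 2 of WT replicate 1 (4.89% and 3.47%) and 1 of 6SA replicate 1 (4.74%). Its part in the differences between conditions was not tested. Counts of called members are given with and without these 5 libraries, but sums, spreads and correlations are given only with them.

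**Figure D3:**
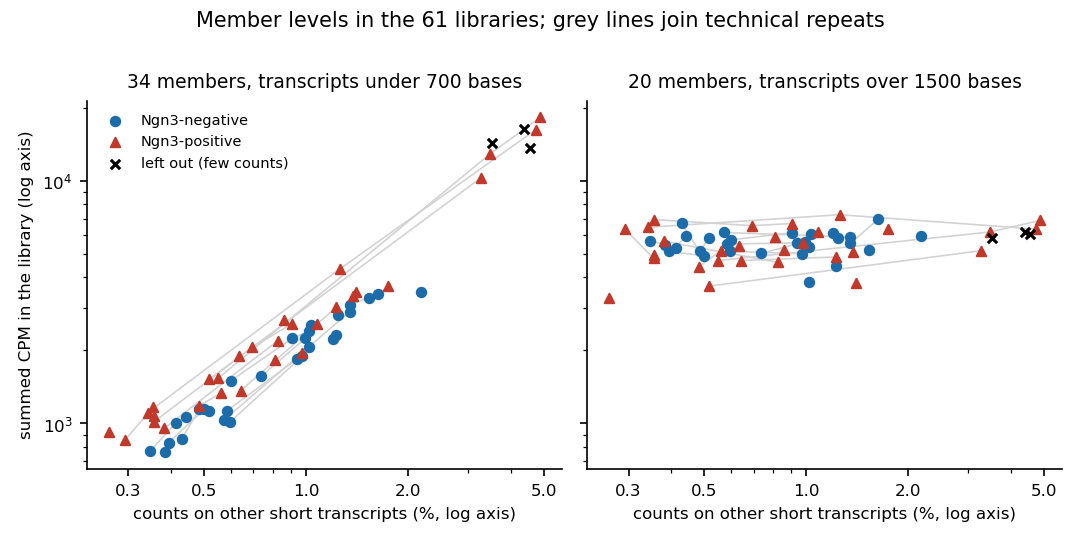
Summed CPM (plain totals, y axis, log) of the 34 members with transcripts under 700 bases (left) and the 20 over 1500 bases (right) in each of the 61 libraries, against the percent of counts on other short transcripts (x axis, log). Circles are Ngn3-negative and triangles Ngn3-positive libraries, crosses are the 3 libraries left out, and grey lines join kept libraries of 1 sample. The left panel climbs with a Spearman correlation of 0.947 over the 58 kept libraries and the right panel is nearly flat (0.192).

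To ask how Ngn3 changed OXPHOS genes, Ngn3-positive cells were compared with Ngn3-negative cells carrying the same partner factors, averaged over 6 pairs of conditions. In edgeR's quasi-likelihood test with Benjamini-Hochberg adjustment over all genes, 1 of 85 members was higher and 1 was lower, against 11.1% of all genes higher and 10.5% lower. The median log2 change of the members was 0.018, against 0.072 for all genes tested, and the median SE was 0.28 for the members and 0.49 for all genes. By complex, 28 of 40 complex I members had a positive log2 change, as did 4 of 8 in complex III, 9 of 16 in complex IV and 7 of 17 in complex V. All 4 in complex II were negative, but 1 of them was positive with plain totals as the scaling. At an unadjusted p under 0.05 there were 2 members higher and 7 lower.

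Cox7a1 (chr7:30184144-30186078, GRCm38, as are all coordinates given), the muscle-type isoform of subunit 7a of cytochrome c oxidase, was the member that rose. Its level was 0 to 1.92 CPM with a median of 0.451 in the 15 Ngn3-negative samples, and 0.403 to 10.6 CPM with a median of 1.05 in the 17 Ngn3-positive samples. The groups overlapped, with 7 of the 17 above every Ngn3-negative sample, and most values were near the limit of a few counts. The log2 change was 2.00 ± 0.64 (SE), with an adjusted p of 0.0233 (edgeR). It passed in 12 of 15 alternatives and not in those without replicate 1 (1.55), without replicate 2 (2.25) or with the first library of each sample only (1.47). Its partner isoform Cox7a2, with a median of 83.6 CPM, had a log2 change of 0.15 ± 0.27.

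Atp5a1, the alpha subunit of ATP synthase, was the member that fell. It was at 588 to 1189 CPM with a median of 888 without Ngn3 and at 416 to 1070.4 CPM with a median of 705 with Ngn3, so 5 of the 17 Ngn3-positive samples lay below all others. The log2 change was -0.39 ± 0.14, with an adjusted p of 0.0447. It missed the threshold in 9 of 15 alternatives, among them RLE scaling (-0.32), plain totals (-0.18) and leaving out any 1 of the 3 replicates. Atp5b, its partner in the catalytic head, ranged from 1057 to 2044 CPM without and 643 to 1939 CPM with Ngn3, and its log2 change of -0.37 ± 0.16 did not pass (adjusted p = 0.105).

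The 4 genes of succinate dehydrogenase did not pass. Sdha had a median of 389.9 CPM (168 to 571) in Ngn3-negative and 291 CPM (224 to 508) in Ngn3-positive samples, with a log2 change of -0.35 ± 0.18 (adjusted p = 0.19). Sdhb, the iron-sulfur subunit, had medians of 171 and 163 CPM and a change of -0.22 ± 0.25. Sdhc had medians of 164 and 138 CPM and a change of -0.29 ± 0.17. Sdhd, which with Sdhc anchors the enzyme in the membrane, had medians of 197 and 127 CPM and the largest of the 4 changes, -0.58 ± 0.22 (adjusted p = 0.0623). The direction by transcript length also depended on the scaling: 15 of 20 long members were negative, but 8 of 20 with plain totals, a setting that raised the median change of all genes by 0.20.

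These counts moved with the libraries and the model used. With the replicate number as a block 2 members were higher and 5 lower, against 27.6% of all genes called. With the share of short transcripts as a covariate, an alternative added after the data were seen, 19 members were higher and 3 lower, among them Atp5a1 and Sdha, against 24.8% of all genes called, and log2 changes other than that of Cox7a1 ran from -0.40 to 0.86. Without replicate 3 of 6SA MafA cells 8 were higher and 0 lower, against 21.953% of all genes called. Without the 5 libraries rich in short transcripts 2 were higher and 0 lower, against 21.403% of all genes called. Among passage 2 samples alone 3 were higher and 1 lower, against 21.881% of all genes called. Passage 5 alone has 8 samples, with 1 per condition, and gives no such test.

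By partner, no member passed when Ngn3 was added to Pdx1, where 1.49% of genes did, or when it was added to MafA, where 4.67% did. At an unadjusted p under 0.05 there were 0 members in either comparison, and DESeq2 called 0 members in both. The member medians were 0.004 and -0.13. When Ngn3 was added to Pdx1 and MafA together, 3 members were higher and 0 lower by edgeR, against 9.42% of genes higher and 8.4% lower; at an unadjusted p under 0.05 there were 11 higher and 6 lower, and DESeq2 called 7 higher and 0 lower. The member median was 0.26 (all genes, 0.049), with 0.50 for short, 0.23 for middle and -0.29 for long transcripts. With the replicate number as a block 7 members were higher and 3 lower, against 23.0% of all genes called, and the member median was 0.57. The test of whether the Ngn3 effect differed among the 3 partner sets called 0 members by edgeR and 0 by DESeq2, where 0.0333% of genes passed, and 1 member, Ndufa4l2, had an unadjusted p under 0.05. The 3 comparisons share no samples.

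The 3 members that passed with all 3 factors, Ndufa1, Ndufa11 and Ndufv3, encode accessory subunits of complex I. Ndufa1 (chrX:37187588-37191163) sits in the membrane arm. It was at 18.8 to 71.1 CPM with a median of 40.1 in the 6 samples with Pdx1 and MafA. With Ngn3 added it was at 428, 93.3 and 60.4 CPM in the 3 WT samples and at 164 and 38.7 CPM in the 2 6SA samples. Both replicate 1 samples stood far above the rest, and the other 3 lay within or just above the Ngn3-negative range. Its log2 change was 1.65 ± 0.51 (adjusted p = 0.0249). Ndufa11 (chr17:56717767-56722141), whose promoter with an NRF-1 core is shown above, is another membrane arm subunit. It was at 43.2 to 111 CPM (median 94.5) without Ngn3 and at 408, 153, 147, 332 and 60.9 CPM with it, in the same order of samples, and changed by 1.27 ± 0.42 (adjusted p = 0.0346). Ndufv3 (chr17:31520115-31531331) belongs to the NADH-oxidising module. It was at 57.2 to 92.6 CPM (median 87.9) without Ngn3 and at 396, 112, 94.1, 234 and 57.2 CPM with it, and changed by 1.11 ± 0.37 (adjusted p = 0.0362). In each of the 3 genes the groups overlapped.

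In all 3 genes the high values came from replicate 1, and within it from particular libraries. Ndufa1 was at 1409.7, 675 and 44.2 CPM in the 3 libraries of WT replicate 1, where other short transcripts took 4.89%, 3.47% and 0.55% of counts. In the 3 libraries of 6SA replicate 1 it was at 43.8, 152 and 529 CPM, with 0.342%, 1.26% and 4.74% on other short transcripts. Ndufa11 ran from 104 to 1039.5 CPM and from 86.4 to 1139 CPM over the same libraries, and Ndufv3 from 78.9 to 1300.3 CPM and from 53.7 to 846 CPM. Without the 5 libraries rich in short transcripts the changes were 0.49, 0.41 and 0.10, none of them past the threshold. In that fit 0 members were higher and 1 lower, against 18.187% of all genes called. Without replicate 1 the changes of the 3 genes were 0.048, -0.034 and -0.17, so that Ndufa11 and Ndufv3 changed sign. The member median was 0.99 without replicate 2 and -0.84 without replicate 1. Conversely, 22 members were higher and 2 lower when the 3 libraries of few counts were put back, against 19.5% of all genes called.

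**Figure D4:**
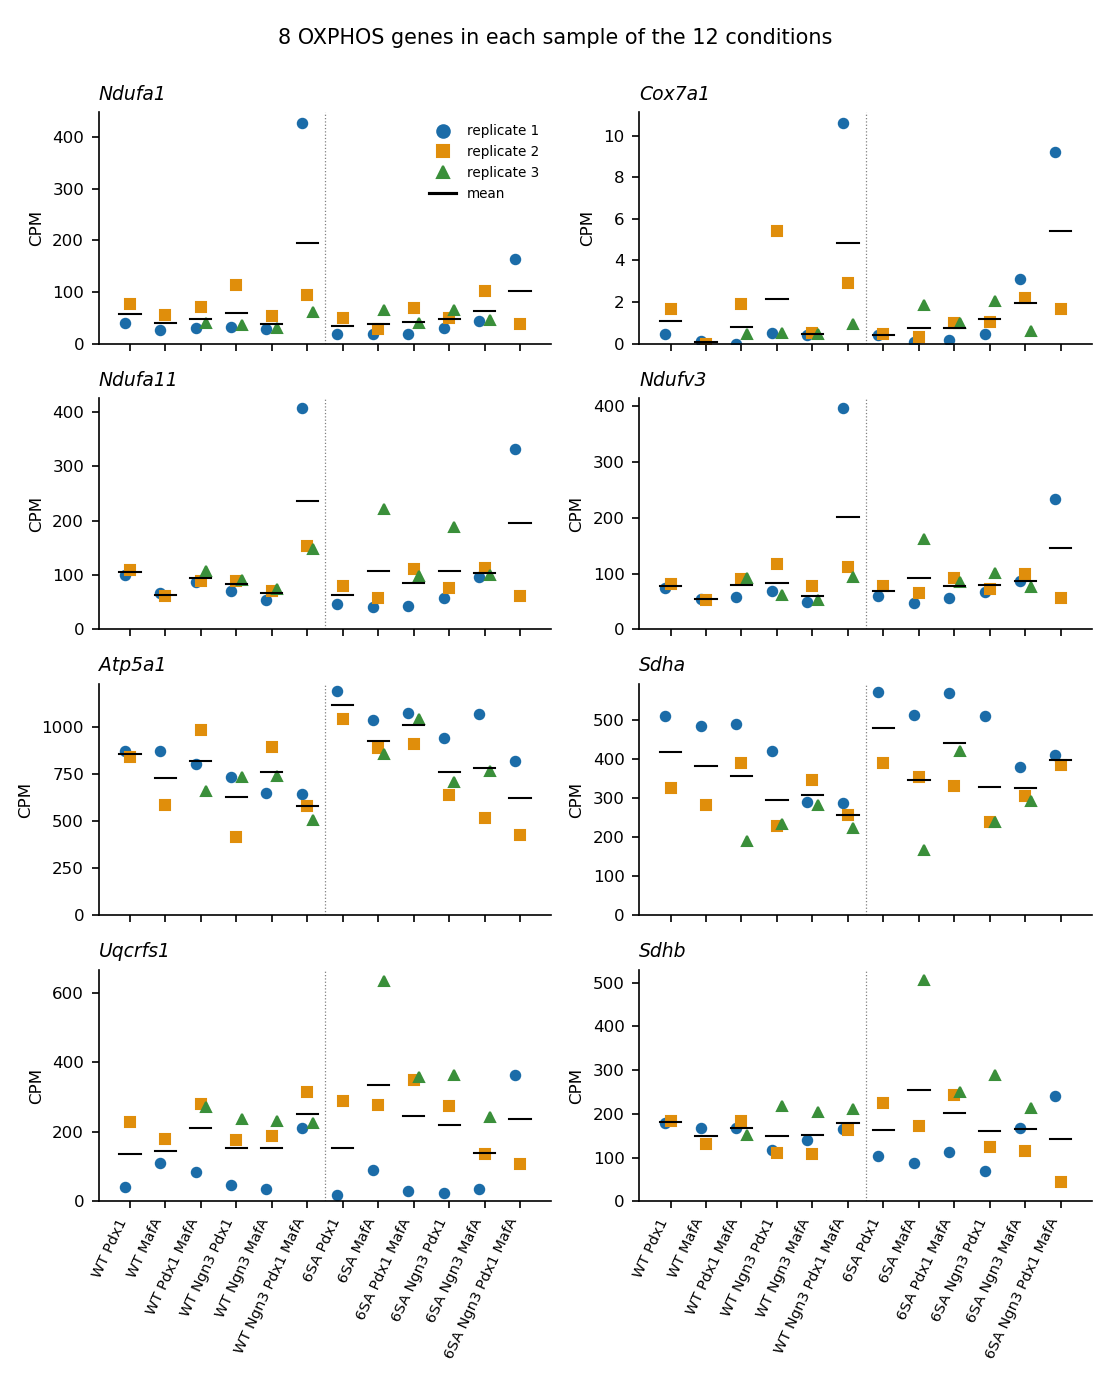
CPM (y axes, linear from 0) of 8 members in the 32 samples by condition (x axis), with 1 symbol per sample shaped and coloured by replicate and the group mean as a black line. Ndufa1, Ndufa11 and Ndufv3 are raised mainly in replicate 1 of cells with all 3 factors (Ndufa1 at 428 and 164 CPM), Cox7a1 stays below 11 CPM, Sdha is usually highest in replicate 1, and Uqcrfs1 is lowest there.

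To ask whether preventing phosphorylation of Ngn3 altered these genes, 6SA and WT cells were compared. In Ngn3-positive cells 0 of 85 members passed by edgeR and 0 by DESeq2, as did 0% of all genes, and 0 members had an unadjusted p under 0.05. The member median was 0.031, with a median SE of 0.38. In Ngn3-negative cells from 6SA and WT cultures 0 members passed by either tool (0% of all genes by edgeR), 1 had an unadjusted p under 0.05 (Uqcrc2, a core protein of complex III, with a log2 change of 0.58 ± 0.24), and the median was -0.052. The Ngn3 effect in 6SA minus that in WT cultures likewise called 0 members by both tools and 0% of genes, with 0 at an unadjusted p under 0.05 and a median of 0.083. Under each of the 15 alternatives these 3 comparisons called 0 members. Median SEs were 0.38, 0.41 and 0.55 on the log2 scale for the 3 comparisons, so changes of that size in a member were not detectable. Larger ones also went uncalled. In Ngn3-positive cells member changes ran from -1.92 to 1.98, and the lowest adjusted p of any gene was 0.498 (edgeR's quasi-likelihood test).

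**Figure D5:**
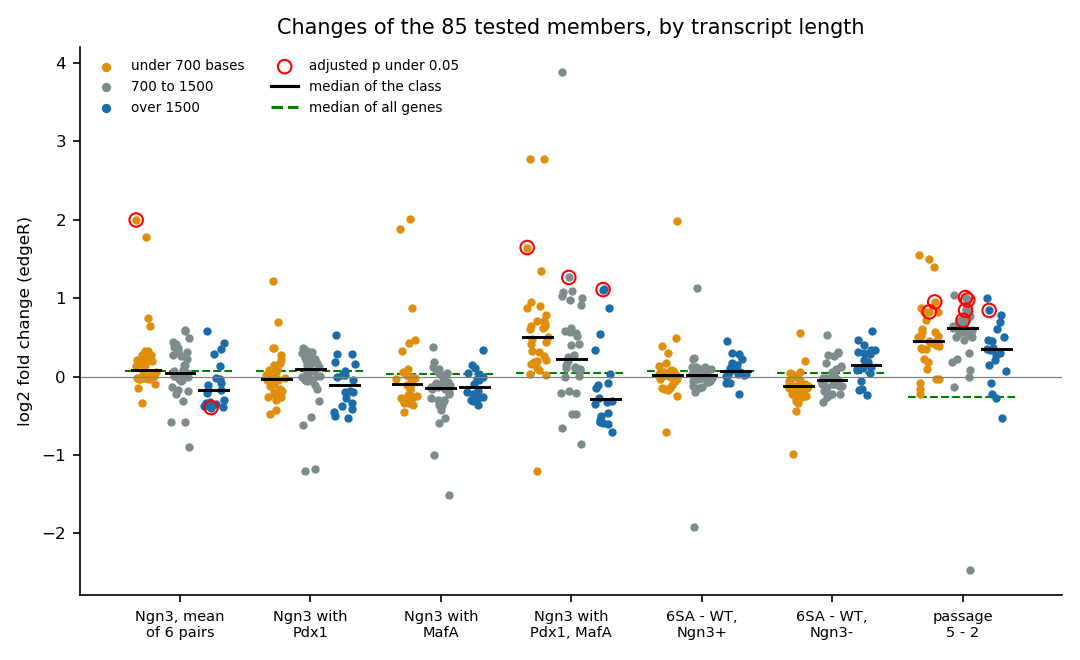
Log2 fold changes (y axis, edgeR) of the 85 tested members in 7 comparisons (x axis), 1 point per gene coloured by transcript length, with class medians as black bars, the median of all genes as a dashed green line and red rings where the adjusted p is under 0.05. Medians lie near 0 in most comparisons, the short members shift up (0.50) and the long ones down (-0.29) where Ngn3 is added to Pdx1 and MafA, and all classes lie above 0 for passage 5 against 2.

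Passage 5 was compared with passage 2 with the 12 conditions as covariate. All passage 5 samples are replicate 3, so that passage and replicate cannot be told apart. By edgeR 7 members were higher and 0 lower, against 3.15% of genes higher and 5.07% lower. The member median was 0.52 (all genes, -0.26), 73 of 85 were positive, and 34 were higher and 1 lower at an unadjusted p under 0.05. Ndufb9, a membrane arm subunit, was at 77.4 to 559 CPM (median 184) at passage 2 and 268 to 651 CPM (median 352) at passage 5, and rose by 1.01 ± 0.29 on the log2 scale (adjusted p = 0.0293). The others named by rule were Ndufs4 (0.84 ± 0.24, adjusted p = 0.0303), Sdhb (0.85 ± 0.25, 0.0339), Ndufb6 (0.95 ± 0.28, 0.0355), Ndufa12 (0.98 ± 0.30, 0.044) and Sdhd (0.72 ± 0.22, 0.0459), with Atp5h, subunit d of the ATP synthase stalk, just inside the threshold (0.83 ± 0.26, 0.049968). In all 7 the ranges overlapped.

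The passage count changed with 1 sample. Without replicate 3 of 6SA MafA cells 0 members passed by edgeR, against 4.49% of all genes, and the member median was 0.28. Without replicate 1 the member median was 0.31 and without replicate 2 it was 0.75, in fits that leave 1 sample in some conditions. Without the 5 libraries rich in short transcripts 3 members were higher and 0 lower, against 5.44% of all genes called. With the share of short transcripts as a covariate 0 were higher and 6 lower, none of them among the 7. In that fit 2.16% of all genes were called, and the member median was -0.0010.

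Samples of 1 passage also differed by replicate number, but mainly in members with shorter transcripts, while all length classes had risen with passage. Replicates 1 and 2 were compared within each of the 12 conditions. Of 31 tested short members, 21 were lower in replicate 1 in 10 or more conditions. The same held for 1 of 20 long members and 8.53% of all genes. By contrast, 6 of 85 members and 7948 of the 24004 genes were lower in replicate 1 in 2 or fewer conditions. The median log2 ratio of replicate 1 to replicate 2 was -0.65 for short, -0.31 for middle and 0.025 for long members. Uqcrfs1 was at 18.7 to 364 CPM (median 44.3) in replicate 1, at 109 to 349 CPM (median 252) in replicate 2 and at 226 to 635 CPM (median 256) in replicate 3. Cox5a was at 3.15 to 121 CPM (median 19.5), 14.8 to 107 CPM (59.8) and 88.5 to 167 CPM (106). Sdha went the other way, with 287 to 571 CPM (median 487), 228 to 389.9 CPM (328) and 168 to 421 CPM (237). The share of counts on other short transcripts was also lower in replicate 1 than in replicate 2 in 10 of the 12 conditions, with medians of 0.602% and 0.964%. The exceptions were the WT and 6SA conditions with all 3 factors.

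Genes that work alongside the members were read from lists. The 13 OXPHOS genes of mitochondrial DNA summed to 21080 to 70659 CPM in Ngn3-negative and 10432 to 47008 CPM in Ngn3-positive samples, and 0 of 13 passed in the Ngn3 comparison by edgeR and 0 by DESeq2, with 1 lower at an unadjusted p under 0.05. With passage 3 were higher, mt-Co3 (1.16 ± 0.34), mt-Atp6 (1.04 ± 0.32) and mt-Nd1 (0.88 ± 0.27), and the summed level was 10432 to 44111 CPM at passage 2 and 35397 to 70659 CPM at passage 5. Over 14 alternatives 0 to 9 of the 13 were higher, and without replicate 3 of 6SA MafA cells 0 passed by edgeR, with a list median of 0.53 against 0.82 with it. Reads that also match nuclear copies of mitochondrial DNA may be lost in counting, so these levels are uncertain between genes. Of 5 OXPHOS partners outside the naming rule 0 passed in the Ngn3 or the passage comparison by edgeR or DESeq2, with 0 and 1 at an unadjusted p under 0.05. Of 38 tested assembly factors 1 was higher and 2 lower with Ngn3, against 11.1% of all genes higher and 10.5% lower. Over the alternatives 0 to 6 were higher and 0 to 5 lower, and Sco2 had no counts.

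Several enzymes that feed the chain fell. With Ngn3, 6 of 18 genes of the tricarboxylic acid cycle and pyruvate dehydrogenase were lower and 0 higher by edgeR. Of all genes 10.5% were lower, and the list median was -0.29 against 0.072 for all genes. Idh2, the mitochondrial NADP-dependent isocitrate dehydrogenase, went from 253 to 628 CPM (median 408) without Ngn3 to 71.3 to 332 CPM (median 151) with it, with 15 of 17 Ngn3-positive samples below every other, and fell by 1.29 on the log2 scale (SE 0.19, adjusted p = 7.95e-06). Suclg2, a subunit of succinyl-CoA ligase, fell by 1.37 (SE 0.22, adjusted p = 3.71e-05), from a median of 56.8 to 21.99 CPM. Cs, citrate synthase, fell by 0.67 (SE 0.14, adjusted p = 0.000508), from a median of 362 to 239 CPM. Over the 15 alternatives 2 to 7 of the 18 were lower and 0 higher. With all 3 factors 5 of the 18 were lower, against 8.4% of all genes. In Suclg2, Idh2 and Cs the groups did not overlap. How often that happens over all genes was not counted. Cs was there at 279 to 462 CPM without and 132 to 231 CPM with Ngn3. Over the alternatives 0 to 7 of the 18 passed as lower in that comparison, with 0 by edgeR without replicate 2.

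Glycolysis genes moved in both directions. Of 24, 3 were higher and 7 lower with Ngn3, against 11.1% of all genes higher and 10.5% lower. Over the 15 alternatives 1 to 4 were higher and 2 to 9 lower. Slc2a2, the glucose transporter of beta cells, rose by 2.81 ± 0.86, although its median went only from 0.214 to 0.656 CPM, and Eno2, the neuronal enolase, rose by 2.13 ± 0.67. Ldhb and Ldha, which encode lactate dehydrogenase, fell by 1.25 and 1.07 (SE 0.18 and 0.17), Ldha from a median of 809.9 to 382.5 CPM, and the glucose transporter Slc2a1 fell by 1.398 (SE 0.24). With all 3 factors 2 were higher, among them Slc2a2 by 4.29, against 9.42% of all genes. Another 8 were lower, led by Ldhb (-2.14), Ldha (-1.64) and Hk2 (-2.70), against 8.4% of all genes.

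Of 16 tested regulators of mitochondrial biogenesis, 1 was higher and 4 lower with Ngn3, against 11.1% of all genes higher and 10.5% lower. Over the 15 alternatives 0 to 1 were higher and 0 to 5 lower, with none called by edgeR without replicate 2, and 1 higher and 1 lower without replicate 1. Esrrg, an orphan nuclear receptor of oxidative tissues, rose by 3.67 ± 0.69 (adjusted p = 0.000222), from a median of 0.338 CPM to 8.94 CPM, and by 7.43 ± 1.27 with all 3 factors. The coactivators Ppargc1a and Ppargc1b fell by 1.88 and 2.47 (SE 0.39 and 0.65), Ppargc1a from a median of 12.9 to 3.39 CPM and Ppargc1b from 1.23 to 0.136 CPM, near the limit of detection. Pprc1, a relative of both, fell by 0.67 (SE 0.20), and Myc fell by 1.38 (SE 0.31), from a median of 264 to 137 CPM. With MafA as the partner Ppargc1a fell by 2.38, and with all 3 factors Myc fell by 3.08 and Pprc1 by 1.15. With passage Myc rose by 1.29, Mterf3, a mitochondrial transcription factor, rose by 0.64, and Esrrg fell by 2.65. Proliferation genes moved with the same groups, 18 of 18 being lower with Ngn3 and summing to 237 to 3410 CPM without and 86.1 to 1304 CPM with it, and their part in these changes was not tested.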

How the data were processed

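RNA-seq libraries of sorted pools of 50 ductal organoid cells, 50-base single-end reads, were measured. Per the labels and methods, the authors aligned reads to mm10 with GSNAP (2015-09-29) and counted them per Ensembl release 81 gene with HTSeq (0.5.3p3), and the deposited values are raw counts. Whether counting used strand is not given in the sources used here. Reads in no gene (6.42% to 27.8%) and the 92 spike-ins were left out of library sizes. Low depth limits low genes: 3 counts are 0.154 to 1.16 CPM, counting error only.

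Libraries of at most 1000000 gene counts were left out, and libraries sharing a replicate number in their labels were summed. Genes with a count in at least 5 libraries and a variance of log2(CPM + 1) of at least 0.001 were tested with edgeR 4.0.16 in R 4.3.3 (TMM scaling, glmQLFit, glmQLFTest, all 12 conditions in 1 fit, Benjamini-Hochberg over 24004 genes). Calls needed an adjusted p under 0.05. The passage comparison added passage to the conditions. DESeq2 1.42.0, other scalings, filters and library choices were alternatives. The tests were tried on simulated data. CPM in the text uses TMM-scaled library sizes, and per-library CPM uses plain totals. Lengths are those of the longest annotated coding transcript.

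The members and the gene lists (duct, endocrine, acinar, mesenchymal, immune and endothelial and proliferation markers, and metabolic genes) were chosen with earlier results of these data known. Members named were up to 6 in each direction with the lowest adjusted p in each comparison, the isoform pairs, complex II, the 5 of highest and lowest mean CPM and those not tested; Cox5a, Uqcrfs1, Cox5b, Cox8a, Ndufc2, Ndufs1, Atp5l, Atp5b in its comparison, Cox7a2 and Uqcrc2 were added after their values were seen. Some genes that the rule for named genes would name are not reported here.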

Additional observations from a re-analysis of the deposited data

Results flagged for a closer look

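A signal appeared in data outside the comparisons, in the 3 libraries left out for their low counts, all from cells with Ngn3, Pdx1 and MafA. The 34 members with transcripts under 700 bases summed to 16319 CPM (plain totals) in 1 library of WT replicate 2, to 14282 CPM in 1 of 6SA replicate 2 and to 13632 CPM in 1 of 6SA replicate 3. The 29 kept Ngn3-negative libraries lay between 760 and 3494 CPM, and the kept libraries of cells with all 3 factors between 918 and 18283 CPM, a range that holds the 3 values. Other short transcripts took 4.39%, 3.51% and 4.55% of the counts in the 3 libraries. No group had enough samples for a check of single samples, and 0 members passed a test of a difference between effects.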

How the results depend on the processing

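Calls of members depended on processing, and except where a sentence says so the cause was not tested. Across the 12 conditions (0 members) there was 1 with plain totals, edgeR's newer quasi-likelihood method (legacy = FALSE) or the short-transcript share as a covariate, 2 with DESeq2, 4 with no gene filter, 8 with all libraries and 5 with the first library of each sample. For Ngn3 over 6 pairs (2) there was 1 with RLE scaling, 7 with plain totals, 6 with all libraries, 22 with the covariate and 8 without replicate 3 of 6SA MafA cells. Ngn3 added to MafA (0) gave 2 with the covariate. For Ngn3 added to Pdx1 and MafA (3) there were 9 with plain totals, 7 with DESeq2, with no gene filter and with the newer method, 24 with all libraries, 1 with the first library of each sample, 1 without the libraries rich in short transcripts, 18 with the covariate and 5 without replicate 3 of 6SA MafA cells. For passage (7) there were 4 with RLE or plain totals, 17 with DESeq2, 23 with no gene filter, 13 with the newer method, 19 with all libraries, 3 without the rich libraries and 0 without replicate 3 of 6SA MafA cells. Leaving out replicates 1, 2 or 3 in turn gave 0 to 4 members for Ngn3, 1 to 4 for Ngn3 added to Pdx1 and MafA, and 0 to 26 for passage (replicates 1 and 2 only). With the replicates left out in turn, the log2 change of Ndufa11 ran from -0.034 to 1.89 and that of Ndufv3 from -0.17 to 1.73, both turning in direction without replicate 1.

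With the replicate number as a block there were 7 members for Ngn3 (2 higher, 5 lower), 10 for Ngn3 added to Pdx1 and MafA (7 higher, 3 lower) and 17 for passage (16 higher, 1 lower), and the block changed no other call. The deviations of same-numbered samples correlated at -0.387 to 0.746 over 14 pairs, 12 of them over 0.1. Since not every pair passed 0.1 and the labels do not say that replicates 1 and 2 mark a shared day or litter, the block was kept as an alternative. As a hint from the data, 28 of 32 samples correlated best with their own number.

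Of the members' counts and sums under alternatives, 113 stayed within the limits set and 40 moved. Of values for named genes and complexes, 134 kept direction and side of the threshold, 57 lost the threshold and 2 turned. Plain totals raised the median change of all genes by 0.20 for Ngn3 and 0.25 for Ngn3 added to Pdx1 and MafA, and the share of calls that were higher from 51.4% to 68.4% and from 52.9% to 67.6%.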
